A study of Mus musculus with 8 samples.

Results

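Mouse 3T3-L1 cells that had received supernatant of USP2-knockdown human HL-60 cells for 6 h were compared with 3T3-L1 cells that had received supernatant of control HL-60 cells for the same time. The members were the transcripts that could be measured at that time, namely every gene or unnamed probe with a probe well above the array background on both arrays of at least 1 of these 2 groups. This rule kept 23163 of the 25793 genes and unnamed probes measured in any group of the series, of which 13085 were named genes and 10078 were probes with no name. The rule did not use the size or the direction of the difference between supernatants. Total RNA had been hybridised to 8 one-colour arrays, 2 for each of 4 groups, and the 4 arrays of 6 h carry the comparison described here.

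3T3-L1 is a mouse fibroblast line that can be turned towards fat cells, and these cultures had been kept in an adipogenic medium for 1 week. HL-60 is a human promyelocytic leukemia line. The HL-60 cells of both arms were grown for 5 days with 30 nM of the phorbol ester PMA, which makes them macrophage-like. They carried either a knockdown of USP2, a ubiquitin-specific protease, or a mock vector. The construct of the knockdown and the number of clones are not given in the sources used here. Both supernatants were diluted 2-fold, and both came from medium that held PMA, so the groups share this agent. A serum content of 10% was recorded for every group. No group without supernatant was analysed here. The comparison at 6 h addresses which transcripts of the recipient cells differed with the USP2 status of the cells that conditioned the medium.

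Macrophage-like cells release cytokines and growth factors that act on fat cells and their precursors. Members of the IL-6 family signal through the receptor chain gp130 and the factor STAT3 to acute phase genes and to the feedback inhibitor Socs3. Ligands of receptor tyrosine kinases signal through the kinase ERK to early transcription factors of the Egr and AP-1 families and to the phosphatases that switch ERK off. BMP and TGF-beta ligands act through SMAD proteins on the Id genes and on matrix genes. Cytokines such as TNF and IL-1 release NF-kB, which switches on chemokine genes and its own inhibitors.

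The labels call the cells adipocytes. Of 25 adipocyte markers, 13 were members and 12 were not well above background at 6 h, among them Adipoq, Plin1, Cidec, Cd36 and Lep, while all 20 markers of preadipocytes and fibroblasts were members. Of 20 macrophage and leukocyte markers 8 were members, and Ptprc, Adgre1 and Cd68 were not. Of 20 endothelial and muscle markers 9 were members, and Cdh5, Myod1 and Myog were not. Over members above background on all 4 arrays, the median log2 fold changes of these 4 lists were -0.022, 0.0039, -0.0081 and -0.23, in that order. In cultured cells fewer cells of a type and less RNA per cell cannot be told apart. The mouse Usp2 gene, which the knockdown in human cells does not touch, was at -3.17 and -3.03 against -3.17 and -3.04 (-0.0039 ± 0.11; adjusted p = 0.987). Actb and Gapdh measured -0.057 ± 0.13 and -0.18 ± 0.10, and for all 3 genes, none of them called, the sign turned under at least the scaling to array medians.

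Between 50.7% and 53.9% of the 59305 spots of each 6 h array were well above background, and replicate arrays correlated at 0.988 in the control and 0.993 in the knockdown group across probes. The 2 control 6 h arrays had bright patches, areas of neighbouring spots raised together, over 2.13% and 3.12% of their spots, against 2.04% and 0.325% for knockdown at 6 h and no more than 0.201% for any array of 3 h. All arrays lay on 1 slide, with control arrays and knockdown arrays in different columns of it, so an effect of the column cannot be told apart from one of the supernatant. The labels call the arrays biological replicates without saying whether wells shared a supernatant preparation, so the p-values measure the spread between these samples only.

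Levels are log2 signals relative to the array's 75th percentile. A difference is knockdown minus control on the log2 scale with the standard error of a limma fit over all 8 arrays (n = 2 arrays per group). A member was called at an adjusted p under 0.05, with Benjamini-Hochberg adjustment over all 25793 genes and probes. At 6 h 550 members were called, 2.37% of all members. Of these 396 were higher with knockdown supernatant (1.71%) and 154 were lower (0.665%). The called members included 291 named genes that rose (2.22% of named members) and 101 that fell (0.772%). The called increases had a median of 0.68 and the called decreases a median of -0.79, while the median over members above background on all 4 arrays was 0.0061. A change over 2-fold was fitted for 67 of the members called higher and 53 of those called lower, and for 48 and 19 of those above background on all 4 arrays. The arrays of the groups did not overlap for any called member, which was also true of 49.7% of all members. Statements below that the arrays of a called gene lay apart thus describe its values and add no support to its call.

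The split between higher and lower calls moved with the scaling. With each array scaled to its median in place of the 75th percentile, the median of all members moved to 0.19, and 924 were higher against 84 lower. With no scaling 41 were higher and 32 lower. Calls in both directions depended on level. Over 4 equal bins of members from dimmest to brightest, 49, 117, 133 and 97 were higher and 73, 49, 27 and 5 were lower. Of the called increases 369 of 396 were above background on all 4 arrays, against 115 of 154 decreases. A spot inside a bright patch belonged to 5.81% of the called increases and 23.4% of the called decreases, against 8.32% of all members. With patch spots set to missing 445 members were higher and 161 lower.

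**Figure D1:**
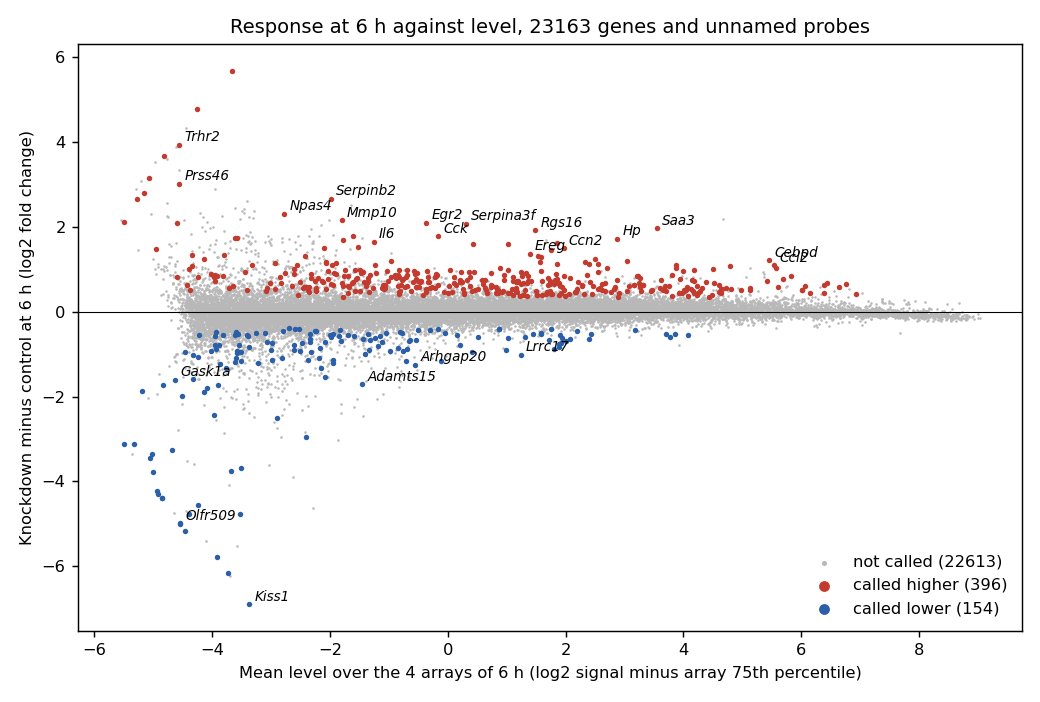
Each point is a member, with its mean level over the 4 arrays of 6 h on the x axis (log2 signal minus the array's 75th percentile) and the difference between knockdown and control supernatant at 6 h on the y axis (log2 fold change). The 396 members called higher (red) run across all levels, while the 154 called lower (blue) lie mostly at low levels, and the largest decreases had no knockdown array above background.

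The number of calls also depended on single arrays. Without knockdown 6 h replicate 1 or 2 the counts were 124 and 302, and without control 6 h replicate 1 or 2 they were 733 (333 higher, 400 lower) and 1665 (938 higher, 727 lower). Without a control 3 h array they were 191 and 190, and without a knockdown 3 h array 121 each time, where the fit has fewer arrays to estimate the spread. Of the 392 called genes with names, 61 were called without each of the 8 arrays in turn (51 higher, 10 lower), and none of the 392 changed sign in any of these fits. No sign could change in these fits, because the 6 h arrays of called members did not overlap between groups. The 3 h arrays do not enter the difference at 6 h. Genes that were called in all 8 such fits are named as such in each paragraph that follows, except the one on changes that rest on arrays below background. With the 4 arrays of 6 h fitted alone, limma called 0 members, against 2751 at an unadjusted p under 0.05.

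Among called genes above background on all 4 arrays the increases of greatest size, by fitted change, were those of Serpinb2, Mmp10, Egr2, Serpina3f, Saa3 and Rgs16. Il6 and Plaur are described here with them although their changes were smaller, and Egr2 and Rgs16 further on. Serpinb2, an inhibitor of plasminogen activators, was at -3.49 and -3.13 with control and -0.69 and -0.61 with knockdown supernatant, a rise of 2.66 ± 0.12 or 6.31-fold (adjusted p = 0.00342). Mmp10, a secreted matrix metalloproteinase also called stromelysin 2, was at -2.86 and -2.89 with control and -0.86 and -0.58 with knockdown supernatant, a rise of 2.15 ± 0.10 or 4.45-fold (adjusted p = 0.00386). Serpina3f, a serine protease inhibitor of the acute phase family, was at -0.62 and -0.84 with control and 1.36 and 1.34 with knockdown supernatant, a rise of 2.08 ± 0.092 or 4.22-fold (adjusted p = 0.00342). In each of these genes both knockdown arrays lay above both control arrays, by far more than replicates differed. Saa3, an apolipoprotein of acute phase plasma lipoproteins that is made by fat cells, was at 2.57 and 2.57 with control and 4.50 and 4.57 with knockdown supernatant, a rise of 1.96 ± 0.061 or 3.90-fold (adjusted p = 0.00278). Il6, the cytokine itself, was at -1.99 and -2.18 with control and -0.51 and -0.36 with knockdown supernatant, a rise of 1.64 ± 0.090 or 3.13-fold (adjusted p = 0.00424). One of its 2 knockdown spots lay in a bright patch, and without it the rise was 1.57. Plaur, the receptor that holds urokinase at the cell surface, was at 0.87 and 1.0 with control and 2.13 and 2.30 with knockdown supernatant, a rise of 1.29 ± 0.088 or 2.44-fold (adjusted p = 0.00742). All 6 genes were called without each of the 8 arrays in turn.

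The promoters of these 6 genes are shown because their transcripts moved together and each holds a C/EBP word. An AP-1 word is in 3 of them and a kB motif in 1. The C/EBP word was part of the choice, so its presence in all 6 is no result. Promoters of Egr2 and Rgs16, which rose more than Il6 and Plaur, are not shown. They come from RefSeq on build GRCm38.p6 and run over the 250 bases before the annotated start, 5′ to 3′ on the gene's strand. Capitals mark matches on either strand to the C/EBP word TTGCNNAA, to the AP-1 word TGAGTCA, or to the kB motif. The Saa3 stretch is chr7:46715677-46715926 on the minus strand. The others lie on the plus strand, Serpina3f at chr12:104214294-104214543, Il6 at chr5:30012864-30013113, Mmp10 at chr9:7502092-7502341, Plaur at chr7:24462233-24462482 and Serpinb2 at chr1:107511173-107511422.
Saa3: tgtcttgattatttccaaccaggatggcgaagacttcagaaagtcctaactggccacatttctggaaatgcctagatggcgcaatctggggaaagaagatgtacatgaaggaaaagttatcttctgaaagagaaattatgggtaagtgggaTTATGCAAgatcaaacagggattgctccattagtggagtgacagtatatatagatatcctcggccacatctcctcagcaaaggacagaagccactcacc
Serpina3f: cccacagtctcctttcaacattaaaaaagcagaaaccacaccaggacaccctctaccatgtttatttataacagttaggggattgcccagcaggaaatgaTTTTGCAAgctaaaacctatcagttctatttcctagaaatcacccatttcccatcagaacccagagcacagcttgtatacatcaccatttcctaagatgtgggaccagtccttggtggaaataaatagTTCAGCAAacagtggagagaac
Il6: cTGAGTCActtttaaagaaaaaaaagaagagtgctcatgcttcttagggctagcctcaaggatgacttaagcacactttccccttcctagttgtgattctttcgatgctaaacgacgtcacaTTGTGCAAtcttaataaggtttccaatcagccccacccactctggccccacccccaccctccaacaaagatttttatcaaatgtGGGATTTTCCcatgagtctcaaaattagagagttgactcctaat
Mmp10: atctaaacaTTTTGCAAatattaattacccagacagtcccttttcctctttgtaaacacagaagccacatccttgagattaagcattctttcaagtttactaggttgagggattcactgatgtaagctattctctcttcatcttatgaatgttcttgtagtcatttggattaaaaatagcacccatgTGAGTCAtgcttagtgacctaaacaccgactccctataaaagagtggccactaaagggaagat
Plaur: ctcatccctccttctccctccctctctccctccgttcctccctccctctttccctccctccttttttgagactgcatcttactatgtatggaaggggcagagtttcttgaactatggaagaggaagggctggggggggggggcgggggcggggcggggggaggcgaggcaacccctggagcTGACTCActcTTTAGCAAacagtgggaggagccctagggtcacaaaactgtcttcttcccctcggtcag
Serpinb2: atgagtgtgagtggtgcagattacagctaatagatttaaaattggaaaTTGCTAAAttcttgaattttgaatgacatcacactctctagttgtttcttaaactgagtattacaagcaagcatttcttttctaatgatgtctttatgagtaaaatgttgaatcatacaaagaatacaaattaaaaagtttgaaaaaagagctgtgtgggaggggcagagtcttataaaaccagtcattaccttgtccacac

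In Saa3 the C/EBP word began 99 bases before the start, in Serpina3f 150 and 22 bases before it and in Serpinb2 202 bases before it. Il6 had all 3 kinds, the AP-1 word 249, the C/EBP word 128 and the kB motif 44 bases before the start. In Mmp10 the AP-1 word began 63 and the C/EBP word 241 bases before the start, and in Plaur the AP-1 and C/EBP words began 69 and 59 bases before it. Over the 300 bases of the table, which run 50 bases past the start, the C/EBP word was in 15.2% of promoters of genes called higher and 12.2% of those called lower, against 8.73% of member promoters and 10.8% of all 27025 promoters. The AP-1 word was in 7.58% and 10.8% of these, against 3.82% and 5.17%. The kB motif was in 9.95% and 8.11%, against 5.17% and 4.35%. For the STAT word TTCCNGGAA the shares were 0.948% and 1.35%, against 1.29% and 1.15%, and for the cyclic AMP response element TGACGTCA they were 1.90% and 0%, against 3.13% and 1.88%. For the CArG box, the site of serum response factor, they were 0.474% and 1.35%, against 1.40% and 1.57%. Of the 392 called named genes 285 matched a promoter in the table, and a match of letters is not a bound site.

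**Figure D2:**
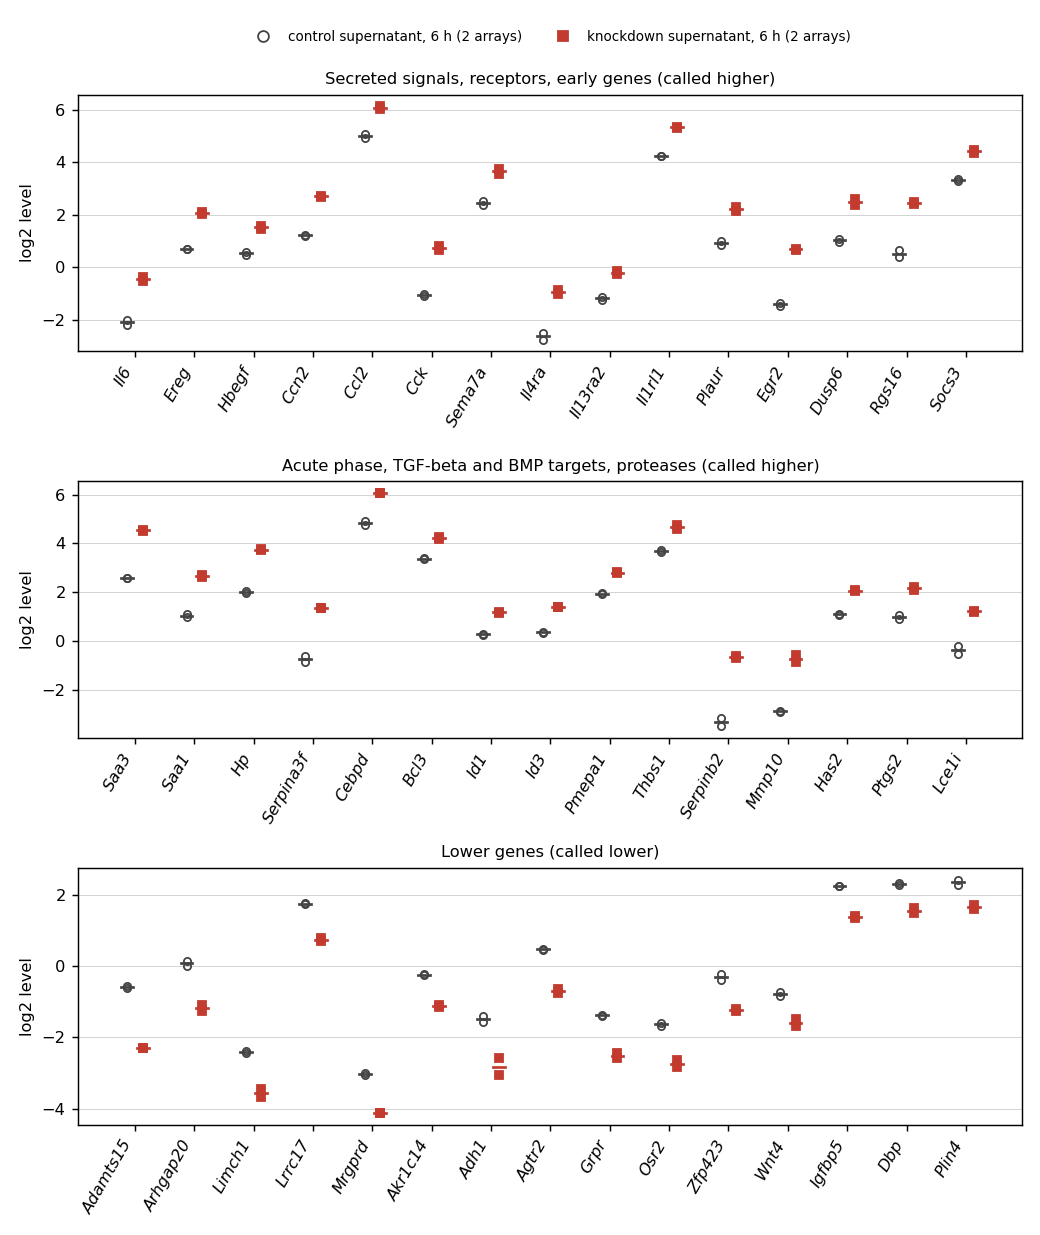
Level of called genes on each array of 6 h (y axis, log2 signal minus the array's 75th percentile), with control supernatant as open circles and knockdown supernatant as filled squares, 2 arrays each, and a bar at each group's mean. In the upper panels both knockdown arrays lie above both control arrays, and in the lower panel both lie below.

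Secreted signals were called mostly in 1 direction. Of 45 members among 56 listed cytokines and growth factors, 16 were higher and 1 was lower, against 2.22% and 0.772% of all named members. The median of the 42 above background on all 4 arrays was 0.31, against 0.0061 for all such members. Besides Il6, the EGF receptor ligand gene Ereg was at 0.71 and 0.70 with control and 2.03 and 2.13 with knockdown supernatant, a rise of 1.37 ± 0.070 (adjusted p = 0.00414). Hbegf, which encodes a second ligand of that receptor, was at 0.47 and 0.60 with control and 1.48 and 1.57 with knockdown supernatant, a rise of 0.99 ± 0.078 (adjusted p = 0.00844). Both ligands were well separated between supernatants. The matricellular growth factor gene Ccn2 was at 1.24 and 1.20 with control and 2.74 and 2.69 with knockdown supernatant, a rise of 1.49 ± 0.086 (adjusted p = 0.00503), and its relative Ccn1 rose by 0.97 ± 0.075 (adjusted p = 0.00813). Inhba, the subunit of activin A, rose by 0.67 ± 0.057 (adjusted p = 0.0100). The colony stimulating factor genes Csf1 and Csf2 rose by 0.54 ± 0.066 and 0.87 ± 0.077, the latter with 1 of 2 control arrays above background. Other probes of Csf1 measured 0.49 ± 0.27 and 0.21 ± 0.14, and Csf1 was not called with the mean over its probes. The alarmin gene Il33 rose by 0.75 ± 0.094 and Clcf1, a cytokine of the IL-6 family, by 0.79 ± 0.091.

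The remaining called signals were growth and trophic factors. The platelet-derived growth factor genes Pdgfa and Pdgfb rose by 0.67 ± 0.073 and 0.74 ± 0.088, and the keratinocyte growth factor gene Fgf7 by 0.66 ± 0.073. The neurotrophic factor genes Gdnf and Bdnf rose by 0.62 ± 0.074 and 0.46 ± 0.068, and osteopontin (Spp1) by 0.64 ± 0.098, with an adjusted p up to 0.0392. Fgf18 was the 1 member of the list called lower, from -2.50 and -2.63 to -3.03 and -3.00 (-0.45 ± 0.076, adjusted p = 0.0496). Second probes of Fgf18 and Pdgfb measured -0.25 ± 0.24 and 0.74 ± 0.27, and neither gene was called with the mean over its probes. Angpt1 and Tgfb2 measured -0.43 ± 0.087 and -0.32 ± 0.061 and were not called (adjusted p = 0.0794 and 0.0700). A second probe of Tgfb2 measured -0.52 ± 0.072. Il11 measured 0.98 ± 0.19 (adjusted p = 0.0745). Il6, Ereg, Hbegf and Ccn2 were called without each of the 8 arrays in turn. The others of the list were lost without at least 1 array, from Ccn1 (0.0511) and Csf2 (0.0586), each without knockdown 6 h replicate 1, to Spp1 without knockdown 6 h replicate 2 (0.145) and Fgf18 without knockdown 6 h replicate 1 (0.178), all given as adjusted p. The number of higher genes of the list ranged from 5 without knockdown 6 h replicate 1 to 17 without control 6 h replicate 2.

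Of 15 chemokine genes that were members among 23 listed, 3 were higher and 0 were lower, against 2.22% and 0.772% of all named members. The list median was 0.13. The 3 became 1 without any one array other than those of control 6 h, and 4 without control 6 h replicate 1. Ccl2, which draws monocytes, was at 4.91 and 5.07 with control and 6.04 and 6.13 with knockdown supernatant, a rise of 1.10 ± 0.087 (adjusted p = 0.00850). Ccl7, its neighbour on chromosome 11, rose by 0.54 ± 0.061 (adjusted p = 0.0187), and Cxcl10, an interferon-inducible chemokine, by 0.74 ± 0.12 (adjusted p = 0.0491). Cxcl1, a neutrophil-attracting chemokine, measured 0.37 ± 0.082 and Cx3cl1 0.40 ± 0.075, and neither was called (adjusted p = 0.0930 and 0.0667). Ccl2 was called without each of the 8 arrays in turn. Ccl7 was lost at an adjusted p up to 0.0803 without knockdown 6 h replicate 2 and Cxcl10 up to 0.178 without knockdown 6 h replicate 1. Outside the lists, the gut and brain peptide gene Cck was at -1.08 and -1.03 with control and 0.65 and 0.80 with knockdown supernatant, a rise of 1.78 ± 0.075 or 3.43-fold (adjusted p = 0.00342). The membrane-anchored semaphorin gene Sema7a was at 2.37 and 2.53 with control and 3.55 and 3.75 with knockdown supernatant, a rise of 1.20 ± 0.10 (adjusted p = 0.0102). Cck and Sema7a were also called in all 8 fits.

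Receptors of cytokines and growth factors were called in 6 of 54 members, all higher, against 2.22% higher of all named members. The list median was 0.13. The called receptors included receptor chains of IL-4 and IL-13. Il4ra, the alpha chain of the IL-4 receptor, was at -2.75 and -2.49 with control and -1.0 and -0.86 with knockdown supernatant, a rise of 1.69 ± 0.12 (adjusted p = 0.00742), although a second probe of the gene measured -0.56, and the mean over its probes was 0.56 (adjusted p = 0.479). Il13ra2, a decoy receptor of IL-13, was at -1.13 and -1.22 with control and -0.25 and -0.14 with knockdown supernatant, a rise of 0.98 ± 0.077 (adjusted p = 0.00844). Il1rl1, the receptor of IL-33, was at 4.24 and 4.24 with control and 5.32 and 5.34 with knockdown supernatant, a rise of 1.09 ± 0.065 (adjusted p = 0.00569). Its ligand gene Il33 was higher in the same arrays, as given above. Tnfrsf12a, the receptor of the cytokine TWEAK, rose by 0.84 ± 0.068 (adjusted p = 0.00893), and Osmr, the oncostatin M receptor, by 0.54 ± 0.076 (adjusted p = 0.0312). The growth hormone receptor gene Ghr measured -0.34 ± 0.075 and Acvr2a, an activin receptor, -0.50 ± 0.12, neither of which was called (adjusted p = 0.0952 and 0.114). Il4ra, Il13ra2, Il1rl1 and Plaur were called without each of the 8 arrays in turn. Tnfrsf12a was lost without knockdown 6 h replicate 1 (adjusted p = 0.0567) and Osmr was at 0.125 without knockdown 6 h replicate 2. The count for the list ran from 4 without knockdown 6 h replicate 1 to 9 without control 6 h replicate 2.

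G protein-coupled receptors were called in both directions, and those named here were chosen after their values were seen, apart from P2ry2, P2ry6, Agtr2 and Grpr. Of the purine receptors, P2ry2 rose by 1.14 ± 0.15, its neighbour P2ry6 by 0.83 ± 0.12 and the adenosine receptor gene Adora2b by 0.68 ± 0.085, with an adjusted p up to 0.0307. P2ry2 and P2ry6 each had 1 spot in a bright patch, and with patches missing they measured 0.94 and 0.83 and stayed called. Agtr2, the type 2 angiotensin receptor, was at 0.49 and 0.43 with control and -0.75 and -0.64 with knockdown supernatant, where it fell by 1.16 ± 0.093 (adjusted p = 0.00871). Grpr, the receptor of gastrin-releasing peptide, was at -1.40 and -1.38 with control and -2.59 and -2.45 with knockdown supernatant, where it fell by 1.13 ± 0.099 (adjusted p = 0.0103). Mrgprd, a receptor best known from sensory neurons, was at -3.01 and -3.07 with control and -4.13 and -4.13 with knockdown supernatant, where it fell by 1.09 ± 0.060 (adjusted p = 0.00424). For all 3 the control arrays stood above the knockdown arrays with no overlap. Mrgprf, a neighbour of Mrgprd, measured -0.82 ± 0.12, the neuropeptide Y receptor gene Npy1r -0.66 ± 0.094, the lysophosphatidic acid receptor gene Lpar4 -0.75 ± 0.11 and the sphingosine phosphate receptor gene S1pr1 -0.41 ± 0.059 (adjusted p up to 0.0371), and all 4 fell. The scavenging chemokine receptor gene Ackr2 fell by 0.94 ± 0.12 (adjusted p = 0.0245). Of these, Mrgprd alone was called without each of the 8 arrays. Agtr2 and Grpr were lost without knockdown 6 h replicate 1 only (adjusted p = 0.0513 and 0.0595), and the others without several arrays, at adjusted p up to 0.152 for Mrgprf without knockdown 6 h replicate 1.

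Of 37 early transcription factor genes that were members among 41 listed, 11 rose and 0 fell, against 2.22% and 0.772% of all named members. The median of the 36 above background on all 4 arrays was 0.28. Egr2, a zinc finger factor induced by growth factors, was at -1.46 and -1.36 with control and 0.67 and 0.70 with knockdown supernatant, a rise of 2.09 ± 0.094 or 4.27-fold (adjusted p = 0.00342). Npas4, an activity-dependent factor, was at -3.68 and -4.19 with control and -1.60 and -1.64 with knockdown supernatant. It rose by 2.31 ± 0.18 (adjusted p = 0.00850), with 1 of 2 control arrays above background. The filter favours such a difference, so this adjusted p is no independent support for it. The orphan nuclear receptor gene Nr4a1 was at 1.81 and 1.93 with control and 3.05 and 3.20 with knockdown supernatant, a rise of 1.25 ± 0.12 (adjusted p = 0.0125). In all 3 the knockdown arrays lay above the control arrays. Of the AP-1 genes, Junb rose by 0.99 ± 0.10, Fosl1 by 0.93 ± 0.087 and Fos by 0.89 ± 0.079 (adjusted p = 0.0155, 0.0123 and 0.0107). Ier2 rose by 0.86 ± 0.064, Egr1 by 0.85 ± 0.081, Myc by 0.78 ± 0.079, Maff by 0.60 ± 0.098 and Csrnp1 by 0.43 ± 0.071, with an adjusted p up to 0.0477. Egr2 and Ier2 were called without each of the 8 arrays in turn. Npas4, Fos and Nr4a1 were lost without knockdown 6 h replicate 1 only (adjusted p = 0.0534, 0.0549 and 0.0585), and Csrnp1 was at 0.179 without knockdown 6 h replicate 2. Without knockdown 6 h replicate 1, 3 of the list were called, and without control 6 h replicate 2 there were 12.

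Among transcription factor and chromatin genes outside that list some rose, described here, and others fell, given further on. Etv4, Hmga2 and Snai1 were chosen after their values were seen. Etv5, a PEA3 family factor, was at 1.94 and 2.03 with control and 3.08 and 3.15 with knockdown supernatant, a rise of 1.12 ± 0.079 (adjusted p = 0.00743). Its relative Etv4 was at 2.04 and 2.15 with control and 2.97 and 3.08 with knockdown supernatant, a rise of 0.93 ± 0.078 (adjusted p = 0.00941). Hmga2, an architectural chromatin protein of proliferating precursors, was at 3.33 and 3.41 with control and 4.35 and 4.43 with knockdown supernatant, a rise of 1.02 ± 0.082 (adjusted p = 0.00871). At 3 h Etv5, Etv4 and Hmga2 had measured 0.049, 0.16 and 0.37. Snai1, a repressor of epithelial genes, rose by 0.85 ± 0.10 (adjusted p = 0.0231). The first 3 were called in all 8 fits without 1 array, and Snai1 was at an adjusted p of 0.0806 without knockdown 6 h replicate 2.

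Negative regulators of receptor signalling were also called. Of 30 members among 34 listed genes of ERK and G protein feedback, 11 were higher and 0 lower. The shares of all named members were 2.22% and 0.772%. The list median was 0.37. Rgs16, which turns off G protein alpha subunits, was at 0.40 and 0.66 with control and 2.40 and 2.50 with knockdown supernatant, a rise of 1.92 ± 0.10 or 3.79-fold (adjusted p = 0.00414). The ERK phosphatase gene Dusp6 was at 0.99 and 1.08 with control and 2.37 and 2.60 with knockdown supernatant, a rise of 1.45 ± 0.098 (adjusted p = 0.00742). The nuclear MAP kinase phosphatase gene Dusp4 was at -0.42 and -0.48 with control and 0.53 and 0.53 with knockdown supernatant, a rise of 0.98 ± 0.063 (adjusted p = 0.00742). All 3 had replicates close to each other next to the gap between groups. Errfi1, an inhibitor of the EGF receptor, rose by 0.77 ± 0.059, Trib1 by 0.71 ± 0.093, Dusp9 by 0.68 ± 0.11, Phlda1 by 0.60 ± 0.088 and Spred2 by 0.55 ± 0.085, with an adjusted p up to 0.0417. The Ras regulator gene Rasa1 rose by 0.59 ± 0.099 (adjusted p = 0.0498), and the list also holds Etv4 and Etv5. A spot of Spred2 lay in a bright patch, and the gene was not called with patches missing (adjusted p = 0.0997). Members of the list with a negative difference included Rgs2 (-0.36 ± 0.093), Spry1 (-0.31 ± 0.099) and Dusp14 (-0.30 ± 0.077), none of them called (adjusted p of at least 0.127). Dusp2 measured 1.75 ± 0.62 with an adjusted p of 0.219, and its knockdown arrays lay at -2.98 and -0.89. Rgs16, Dusp6, Dusp4 and Errfi1 were called without each of the 8 arrays in turn, and Spred2 was at an adjusted p of 0.157 without knockdown 6 h replicate 1. The list held 6 to 13 higher genes without 1 array, the most without control 6 h replicate 2 and the fewest without any one 3 h array or without knockdown 6 h replicate 2.

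Of 23 genes of the STAT3 pathway, all of them members, 5 were higher and 0 lower, with a median of 0.23. The shares of all named members were 2.22% and 0.772%. The 5 became 3 without either knockdown 3 h array or without knockdown 6 h replicate 1. Socs3, the inhibitor that STAT3 induces against gp130, was at 3.31 and 3.35 with control and 4.37 and 4.48 with knockdown supernatant, a rise of 1.09 ± 0.082 (adjusted p = 0.00784). Cish, a relative that answers to STAT5, rose by 0.62 ± 0.058 (adjusted p = 0.0119). Bcl3, a nuclear cofactor of NF-kB that STAT3 induces, was at 3.36 and 3.40 with control and 4.20 and 4.27 with knockdown supernatant, a rise of 0.86 ± 0.067 (adjusted p = 0.00843). Cebpd, a C/EBP factor of the acute phase and of early fat cell differentiation, was at 4.75 and 4.93 with control and 6.05 and 6.06 with knockdown supernatant, a rise of 1.22 ± 0.085 (adjusted p = 0.00743). Its relative Cebpb measured 0.55 ± 0.16 and was not called (adjusted p = 0.152). The kinase gene Pim1 measured 2.04 ± 0.60 (adjusted p = 0.160), with knockdown arrays at -0.15 and -2.11. Socs3, Bcl3 and Cebpd were called without each of the 8 arrays in turn, and Cish was lost at up to 0.0655 without knockdown 6 h replicate 1.

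Acute phase genes were called in 10 of 24 members among 35 listed, all of them higher, against 2.22% higher of all named members. The list median was 0.22. Besides Saa3, its paralog Saa1 was at 1.09 and 1.0 with control and 2.63 and 2.69 with knockdown supernatant, a rise of 1.62 ± 0.10 (adjusted p = 0.00678), and Saa2 rose by 1.31 ± 0.16 (adjusted p = 0.0227). Hp, the haemoglobin-binding protein haptoglobin, was at 2.06 and 1.96 with control and 3.71 and 3.76 with knockdown supernatant, a rise of 1.72 ± 0.067 or 3.30-fold (adjusted p = 0.00342). Serpina3i was at -2.53 and -2.46 with control and -0.97 and -0.44 with knockdown supernatant, a rise of 1.78 ± 0.18 (adjusted p = 0.0139). The arrays of the supernatants did not overlap in any of these genes, as in every called member. Serpina3n rose by 0.70 ± 0.086, the siderophore-binding lipocalin Lcn2 by 0.64 ± 0.097, the long pentraxin Ptx3 by 0.69 ± 0.10 and the metalloreductase Steap4 by 0.72 ± 0.093, with an adjusted p up to 0.0381. Outside the list, Serpina3b rose by 0.60 ± 0.083 and Lrg1 was at least 1.80-fold higher (adjusted p = 0.0195), and neither of its control arrays exceeded background. Saa3, Saa1, Hp and Serpina3f were called in all 8 fits without 1 array. The others were lost without at least 1 array, at adjusted p up to 0.120 for Steap4 without knockdown 6 h replicate 1, and the list held 4 calls without either knockdown 3 h array. Saa1 and Saa2, and the Serpina3 genes, are near-identical copies, so a probe of one may also read its relatives.

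Of 28 NF-kB genes that were members 6 were higher and 0 lower, and the median was 0.29. For this list and the next, the shares of all named members were 2.22% and 0.772%. Nfkbia, the main cytoplasmic inhibitor, rose by 0.40 ± 0.064, Nfkbie, a related inhibitor, by 0.66 ± 0.058, the subunit gene Relb by 0.70 ± 0.083 and Tnip3, a partner of the deubiquitinase A20, by 0.80 ± 0.11 (adjusted p up to 0.0438). Tnfaip2, a TNF-inducible gene, rose by 0.44 ± 0.073 (adjusted p = 0.0491). A second probe of Tnfaip2 measured 0.58 ± 0.13, and the gene was not called with the mean over its probes. The RNase gene Zc3h12a, which cleaves cytokine transcripts, rose by 0.66 ± 0.057 (adjusted p = 0.0102). At 3 h Zc3h12a had measured 1.08 and Nfkbie 0.11. Of 21 regulators of RNA stability 2 were higher, Zc3h12a and Zfp36l2 (0.56 ± 0.077; adjusted p = 0.0294), and this count became 0 when knockdown 6 h replicate 1 was left out. The immunometabolic gene Acod1, which encodes the enzyme of itaconate synthesis, rose by 1.01 ± 0.12 (adjusted p = 0.0224), and S100a8, a calcium-binding alarmin in the list of leukocyte markers, by 0.84 ± 0.087 (adjusted p = 0.0148). None of the 6 genes of the NF-kB list was called without knockdown 6 h replicate 1, where the highest adjusted p was 0.147. Without control 6 h replicate 2 the list held 7 higher genes.

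Genes that answer to BMP, TGF-beta and YAP were called in 14 of 34 members, all higher, against 2.22% higher of all named members. The list median was 0.27. Id3, an inhibitor of basic helix-loop-helix factors and a direct SMAD target, was at 0.37 and 0.35 with control and 1.41 and 1.39 with knockdown supernatant, a rise of 1.04 ± 0.067 (adjusted p = 0.00735). Id1 was at 0.24 and 0.31 with control and 1.15 and 1.21 with knockdown supernatant, a rise of 0.90 ± 0.064 (adjusted p = 0.00769), and Id4 rose by 0.77 ± 0.11 (adjusted p = 0.0305). A spot of Id4 lay in a bright patch, and it was not called with patches missing (adjusted p = 0.0642). The inhibitors of SMAD signalling were higher as well. Pmepa1 was at 1.91 and 1.96 with control and 2.78 and 2.83 with knockdown supernatant, a rise of 0.87 ± 0.063 (adjusted p = 0.00777), Tgif1 rose by 0.73 ± 0.065, Smad7 by 0.81 ± 0.070 and Skil by 0.67 ± 0.074 (adjusted p up to 0.0182). Ankrd1, a YAP target, rose by 0.43 ± 0.063 (adjusted p = 0.0348). Id1, Id3, Pmepa1, Tgif1 and Ccn2 were called without each of the 8 arrays in turn. Without knockdown 6 h replicate 1 the list held 5 higher genes, and Smad7 and Ankrd1 were then at adjusted p of 0.0623 and 0.147.

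Proteases, their inhibitors and matrix genes were called in both directions. In the list of matrix proteases 5 of 29 members were higher and 1 was lower, with a median of 0.065. In the plasminogen list 4 of 20 were higher. Among all named members the shares were 2.22% higher and 0.772% lower. The 5 became 1 without any one knockdown array of 3 h or 6 h, and the 4 ran from 3 without knockdown 6 h replicate 1 to 6 without control 6 h replicate 2. Mmp13, the collagenase 3 gene, rose by 0.91 ± 0.12 and its neighbour Mmp1b by 1.11 ± 0.18 (adjusted p = 0.0287 and 0.0435). Timp1, an inhibitor of metalloproteinases, rose by 0.68 ± 0.069 and the aggrecanase gene Adamts4 by 0.61 ± 0.060 (adjusted p = 0.0140 and 0.0136). Adamts15, a related aggrecanase, went the other way, at -0.62 and -0.56 with control and -2.31 and -2.30 with knockdown supernatant, where it fell by 1.71 ± 0.090 (adjusted p = 0.00424). Mmp3 measured 0.35 ± 0.070 and Adamts1 -0.44 ± 0.11, neither called (adjusted p = 0.0767 and 0.126). Has2, a hyaluronan synthase, was at 1.11 and 1.09 with control and 2.03 and 2.11 with knockdown supernatant, a rise of 0.97 ± 0.061 (adjusted p = 0.00694). Thbs1, the matricellular protein thrombospondin 1, was at 3.64 and 3.75 with control and 4.61 and 4.76 with knockdown supernatant, a rise of 0.99 ± 0.082 (adjusted p = 0.00922), while its relative Comp fell by 0.42 ± 0.058 (adjusted p = 0.0288). Of 24 collagen genes 0 were called, with a median of -0.047. Adamts15, Mmp10, Has2 and Thbs1 were called without each of the 8 arrays in turn. Mmp1b was at an adjusted p of 0.166 without knockdown 6 h replicate 1, and Comp and Mmp13 were at 0.123 and 0.113 without knockdown 6 h replicate 2.

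Ptgs2, the inducible cyclooxygenase of prostaglandin synthesis, was at 0.90 and 1.07 with control and 2.10 and 2.22 with knockdown supernatant, a rise of 1.18 ± 0.092 (adjusted p = 0.00819). At 3 h it had measured 1.18. Gch1, which makes the cofactor of nitric oxide synthases, rose by 0.77 ± 0.11 (adjusted p = 0.0322). Ptgs2 and Gch1 were the called genes among 20 members of the prostanoid and nitric oxide list (median 0.20). Of all named members 2.22% were higher. Slc39a14, a zinc and iron importer of the acute phase, was at 1.68 and 1.82 with control and 2.86 and 2.98 with knockdown supernatant, a rise of 1.17 ± 0.082 (adjusted p = 0.00750). Slc16a11, a monocarboxylate transporter family member, was at -2.29 and -2.29 with control and -0.72 and -0.79 with knockdown supernatant, a rise of 1.53 ± 0.11 (adjusted p = 0.00743). Anxa8, a calcium-dependent phospholipid-binding protein, was at 4.04 and 3.96 with control and 4.98 and 5.04 with knockdown supernatant, a rise of 1.01 ± 0.070 (adjusted p = 0.00742). For these 3 transport and membrane genes the knockdown arrays lay above the control arrays. Gch1 was at an adjusted p of 0.126 without knockdown 6 h replicate 2, and the other 4 were called without each of the 8 arrays.

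**Figure D3:**
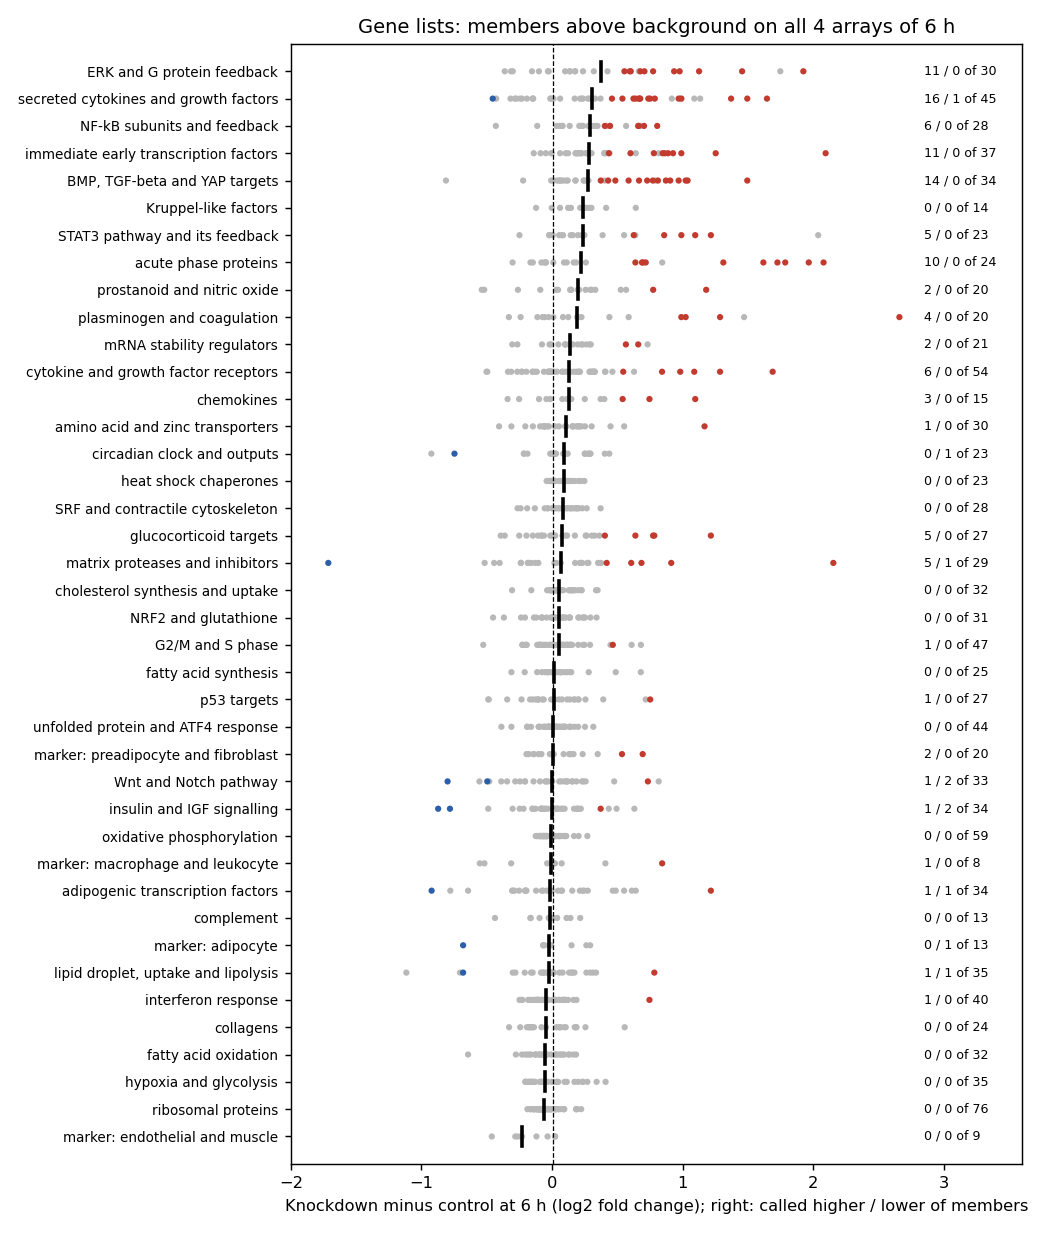
Difference between knockdown and control supernatant at 6 h (x axis, log2 fold change) for the genes of each list (y axis) above background on all 4 arrays, with called genes in red (higher) or blue (lower), the list median as a bar and, at the right, the called higher and lower of all members. Lists of secreted signals, early transcription factors, ERK feedback and BMP or TGF-beta targets lie to the right of 0, while ribosomal and oxidative phosphorylation genes lie near it.

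Some called genes stood beside each other in the genome. Of the 392 called named genes 84 lay within 3 gene ranks of another, in 37 groups, of which 28 went 1 way, where 291 of the 392 were higher to begin with. No share for uncalled genes was computed. On chromosome 3 the late cornified envelope genes, which are known from skin, were higher. Lce1i was at -0.54 and -0.20 with control and 1.18 and 1.25 with knockdown supernatant, a rise of 1.59 ± 0.12 (adjusted p = 0.00819). A second probe of Lce1i measured 0.71 ± 0.34, and the gene was not called with the mean over its probes. Lce1g rose by 1.32 ± 0.095, Lce1c by 1.10 ± 0.076 and Lce1f by 1.19 ± 0.14 (adjusted p up to 0.0198). Other epidermal genes were the envelope precursor gene Ivl, with 1 of 2 control arrays above background and a rise of 1.74 ± 0.17, and the keratin gene Krt16 (0.89 ± 0.082), with an adjusted p up to 0.0137. Ppl, which encodes the envelope protein periplakin, went the other way and measured -1.23 ± 0.16 (adjusted p = 0.0274), with 1 of 2 knockdown arrays above background, and was lost at up to 0.122 without knockdown 6 h replicate 1. On chromosome 1 the interferon-inducible genes Ifi209, Ifi207 and Ifi204 rose by 0.72 ± 0.085, 0.59 ± 0.063 and 0.62 ± 0.076 (adjusted p up to 0.0232). On chromosome 19 the glutathione transferase genes Gsto2 and Gsto1 rose by 0.83 ± 0.073 and 0.64 ± 0.069. On chromosome 13 the homeobox genes Irx1 and Irx2 rose by 0.52 ± 0.057 and 0.40 ± 0.067 (adjusted p of the 4 genes up to 0.0492). A second probe of Irx2 measured 0.41 ± 0.14, and Irx2 was not called with the mean over its probes. Lce1c, Lce1g, Lce1i and Gsto2 were called without each of the 8 arrays in turn, while Irx2 was lost without any one of them, at up to 0.180. Many of these neighbours are paralogs, so a probe of one may also read another, and their calls may not be independent.

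Genes that fell formed no list of their own, and those described here were named by the rule on size or chosen after their values were seen. Arhgap20, a GTPase-activating protein, was at 0.15 and -0.0093 with control and -1.26 and -1.10 with knockdown supernatant, where it fell by 1.25 ± 0.095 (adjusted p = 0.00796). Limch1, an actin stress fibre regulator, was at -2.39 and -2.43 with control and -3.69 and -3.44 with knockdown supernatant, where it fell by 1.15 ± 0.091 (adjusted p = 0.00844). Lrrc17, a secreted leucine-rich repeat protein, was at 1.77 and 1.72 with control and 0.77 and 0.69 with knockdown supernatant, where it fell by 1.02 ± 0.067 (adjusted p = 0.00742). In all 3 the control arrays lay above the knockdown arrays. Akr1c14, a steroid-metabolising reductase, fell by 0.88 ± 0.060 (adjusted p = 0.00742). These 4 genes were called without each of the 8 arrays in turn. The alcohol dehydrogenase gene Adh1 measured -1.34 ± 0.17, the transcription factor gene Osr2 -1.10 ± 0.11, the cell polarity gene Insc -1.17 ± 0.13, the selenium-binding protein gene Selenbp1 -0.99 ± 0.13 and Clec14a -1.16 ± 0.15, and each fell (adjusted p up to 0.0271). The highest adjusted p of these 5 without 1 array ran from 0.0537 to 0.104.

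In the lists of fat cell identity and metabolism the calls went both ways or were absent, against 2.22% higher and 0.772% lower of all named members. Of 34 adipogenic transcription factors, Cebpd rose and Zfp423, a preadipocyte commitment factor, fell by 0.92 ± 0.095 (adjusted p = 0.0147). Pparg, the central regulator of fat cell differentiation, measured -0.068 ± 0.058, its target Fabp4 -0.0067 ± 0.063 and the lipoprotein lipase gene Lpl -0.022 ± 0.058, none called (adjusted p = 0.551, 0.964 and 0.856), and the sign of all 3 turned when arrays were scaled to their medians. Of 35 lipid droplet and lipolysis genes, Angptl4, an inhibitor of lipoprotein lipase, rose by 0.78 ± 0.068 (adjusted p = 0.0102) and Plin4, a lipid droplet coat protein, fell by 0.68 ± 0.082 (adjusted p = 0.0218). G0s2, an inhibitor of triglyceride lipase, measured -1.12 ± 0.32 without a call (adjusted p = 0.155). Of 25 fatty acid synthesis and 32 fatty acid oxidation genes 0 were called, with medians of 0.018 and -0.053. In the insulin and IGF list Tsc22d1, a regulator of transcription, rose by 0.37 ± 0.057 (adjusted p = 0.0383). In the same list Igfbp5 and Foxo6 fell by 0.87 ± 0.096 and 0.78 ± 0.096. In the clock list Dbp fell by 0.75 ± 0.076, and in the Wnt and Notch list Wnt4 and Rspo3 fell by 0.80 ± 0.091 and 0.50 ± 0.063 while Lef1 rose by 0.73 ± 0.099 (adjusted p up to 0.0283). Zfp423, Plin4, Tsc22d1 and the last 6 were lost without at least 2 arrays, at adjusted p up to 0.151.

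The lists of general stress and growth held at most 1 called gene each, against 2.22% higher and 0.772% lower of all named members. At those shares lists of this size would hold few calls, so the counts alone show no sparing. Among 76 ribosomal protein genes, 59 of oxidative phosphorylation, 44 of the unfolded protein and ATF4 response, 35 of hypoxia and glycolysis, 32 of cholesterol synthesis, 31 of the NRF2 response and 23 heat shock chaperones, limma called 0. Their medians ran from -0.065 for ribosomal proteins to 0.089 for chaperones. Of 40 interferon response genes Cxcl10 was called, with a list median of -0.045. Of 47 cell cycle genes E2f2 was called (0.46 ± 0.076; adjusted p = 0.0476) and of 27 p53 targets Plk3 (0.75 ± 0.068; adjusted p = 0.0107). Of 28 genes of serum response factor and the contractile cytoskeleton 0 were called, with a median of 0.086.

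Some of the fitted changes of greatest size rest on arrays below background, so only a bound is given. Such genes are members through their brighter group alone, so the filter favours a difference and their adjusted p is no independent support for it. They make up 23 of the members called higher and 28 of those called lower. The same limit holds for 4 members called higher and 11 called lower with only 1 of 2 arrays above background in 1 group. Csf2, Npas4, Ivl and Ppl are among these. Trhr2, a receptor of thyrotropin-releasing hormone, was at least 3.72-fold higher (adjusted p = 0.0282) and the serine protease gene Prss46 at least 2.73-fold higher (adjusted p = 0.0124). Gask1a was at least 2.37-fold lower (adjusted p = 0.00386), the proton channel gene Otop1 at least 2.91-fold, the homeobox gene Lhx3 at least 3.31-fold and the phosphate transporter gene Slc34a1 at least 2.95-fold lower (adjusted p up to 0.0346). Such bounds set the mean of the brighter group against the lowest detected signal of the dimmer group's arrays, or the probe's own signal where that was higher. The strongest apparent decreases had control spots inside bright patches. Kiss1, the kisspeptin precursor, was at least 35.6-fold lower (adjusted p = 0.0123) with 1 spot in a patch. With patches missing its adjusted p was 0.0154, and no bound was computed for that setting. Guca1a was no longer called when patches were missing (adjusted p = 0.0549). For the olfactory receptor genes Olfr509 and Olfr67 both control spots lay in patches, so their calls have no value without them. The part of the patches in these decreases was not tested beyond these values.

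Values at 3 h came from other arrays. These arrays entered the calls at 6 h through the shared estimate of spread and the probe chosen for each gene. They also widened the set of genes and probes over which p was adjusted. With the fit and adjustment over probes passing at 6 h only, 749 members were called, against 550. At both times control and knockdown arrays lay in different columns of the slide, and preparations of supernatant may have been shared. An effect of column or preparation common to both times cannot be told apart here. Agreement between the times is thus no independent support for the 6 h calls. At 3 h 57 of the members were called (0.246%). Of the 396 members higher at 6 h, 367 had a positive difference at 3 h (92.7%), and of the 154 lower ones 134 had a negative one (87.0%), against 60.4% with the same sign among all members. The difference was larger at 6 h in 360 and 147 of these (90.9% and 95.5%), against 62.0% of all members, although the called were picked for their size at 6 h. Adamts15 measured -1.63 at 3 h and -1.71 at 6 h, and Has2 0.98 and 0.97. Id3 measured 1.46 at 3 h and 1.04 at 6 h, while Arhgap20, Limch1 and Anxa8 were at -0.22, -0.14 and 0.070 at 3 h. A test of the difference between the effects at 6 h and 3 h called 0 members with limma, against 2032 at an unadjusted p under 0.05, and its smallest adjusted p was 0.0822. Without control 6 h replicate 1 or 2 that test called 200 and 245 members, and without knockdown 6 h replicate 2 it called 38.

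**Figure D4:**
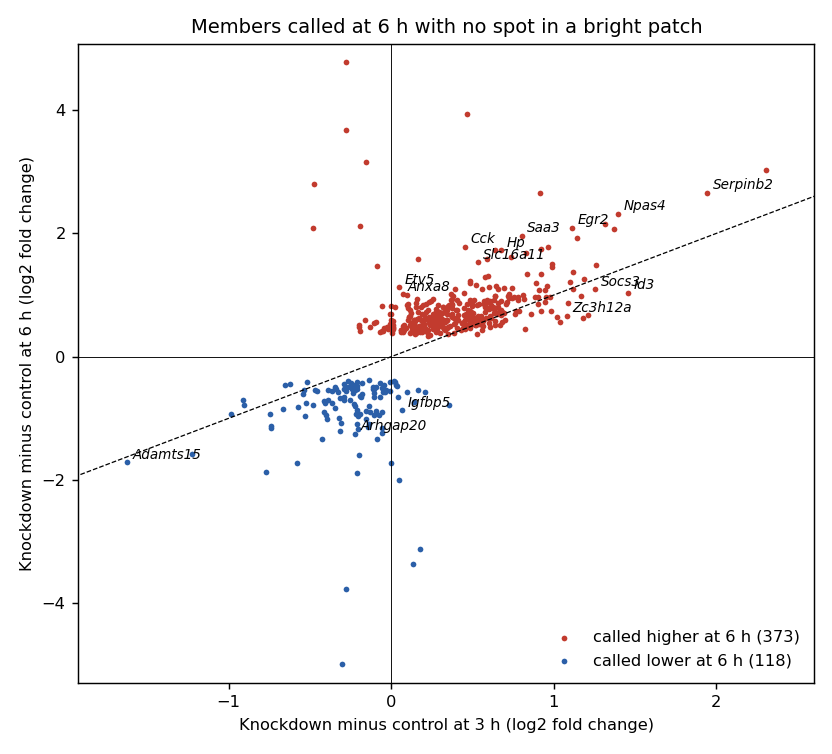
Difference between supernatants at 3 h (x axis) against that at 6 h (y axis), both as log2 fold changes, for the members called at 6 h with no spot in a bright patch, red for higher and blue for lower, with a dashed line where both are equal. Most of them lie on the same side of 0 at both times.

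Probes with no gene name, 10078 of the members, added 105 higher and 53 lower calls. Among 4913 probes that the array names by a genome region alone 60 were higher and 28 lower. These are smaller shares than the 1.71% and 0.665% of all members. More than 1 called probe was held by 14 regions. On build mm9 all 5 probes of the region chr1:175705225-175717250 on the reverse strand were called, at 0.48 to 0.63. Of their control spots 1 lay in a bright patch. All 3 probes of chr19:46419916-46421753 on the forward strand were called at 0.91 to 0.96, and all 3 of chr5:91480533-91502237 on the reverse strand at 0.88 to 0.99. In chr3:45163252-45179177, on the reverse strand, 2 of 4 probes fell, at -0.78 and -0.85, and all 4 lay between -0.99 and -0.71. The probes of a region share its transcript and are not replicates.

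**Figure D5:**
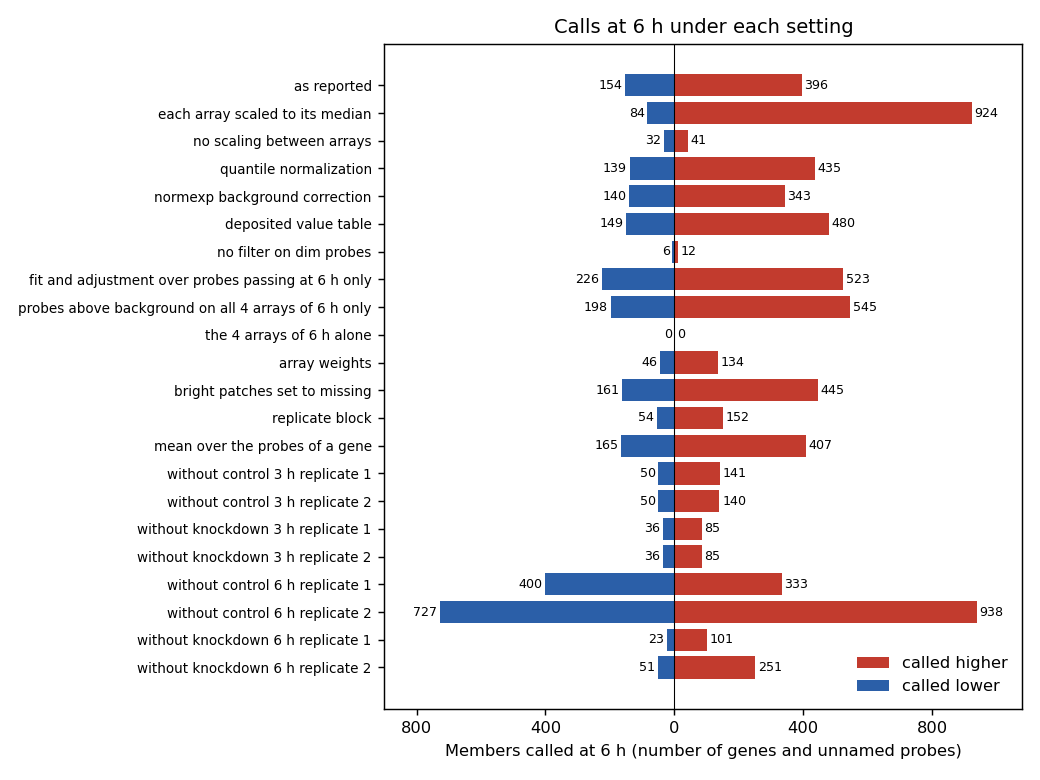
Number of members called higher and lower at 6 h (x axis) under each processing setting and without each array (y axis). The counts run from 0 with the 6 h arrays fitted alone to 1665 without control 6 h replicate 2.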

How the data were processed

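Total RNA of 8 samples had been hybridised to one-colour Agilent arrays, and the deposited values are spot intensity readings of Agilent Feature Extraction, per the file headers. The authors' deposited log2 table, which correlated at 1 with the log2 processed signal of each array and so differs by a shift (array medians from -4.23 to -3.95, centring unstated), served as an alternative. Of 55681 non-control probes, 27235 were named by transcript accession and 20 by symbol through RefSeq (GRCm38.p6), and 28426 stayed unnamed.

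The processed signal was scaled to each array's 75th percentile and taken to log2, replicate spots of a probe were averaged, and the probe with the highest mean stood for a gene. limma 3.58.1 in R 4.3.3 fitted 4 group means over 8 arrays, 2 per group, with Benjamini-Hochberg adjustment over 25793 genes and probes and a threshold of 0.05. The scripts were tested on simulated data. A bright patch was an area where the dim spots of a 7 by 7 neighbourhood lay in the median over 1.0 log2 units above their medians over the arrays. The number of arrays limits the precision.

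Alternatives were other scalings, background corrections (normexp with an offset of 50 on the median signal, since the mean signal was not used here), filters, the replicate block, array weights, missing patches and each array left out. Named genes were, by rule, up to 15 in each direction with the largest change free of patches, up to 5 of each list by smallest p with up to 3 of opposite sign, up to 8 in each direction with a patch, up to 8 with a call between times, and Usp2, Il6, Saa3, Adamts15, Fabp4, Pparg, Lpl, Actb and Gapdh. Others were chosen after their values were seen. The members and the lists were chosen with earlier results of these data known. Results for some genes are not reported here.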

Additional observations from a re-analysis of the deposited data

How the results depend on the processing

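The number of members called at 6 h (550) was 1008 with median scaling, 73 with no scaling, 18 with no filter on dim probes, 0 with the 4 arrays of 6 h alone (2751 at an unadjusted p under 0.05) and 180 with array weights. It stayed within 1.5 times of 550 with quantile scaling, normexp, the deposited table, patches missing, the mean over probes and narrower sets of probes. Without 1 array it ran from 121 to 1665. The difference between the 6 h and 3 h effects was called for 0 members in the reported fit, 6 with no scaling, 1 with quantile scaling and 0 to 245 without 1 array. The cause was not tested.

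Labels number the replicates alike across groups, but same-numbered arrays did not deviate together (correlations from -0.047 to 0.087), so the numbers were not taken as pairs. With the replicate number as a block 206 members were called, 152 higher and 54 lower.

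Of 167 called genes followed through the settings, 133 lost their call with no scaling and 154 with no filter on dim probes. Array weights lost 75, the replicate block 73 and the 6 h arrays alone 167. Of the 392 called named genes, median scaling kept 291 higher but only 41 lower calls. Fgf18, Mrgprf, Npy1r, Lpar4, S1pr1, Comp, Selenbp1, Foxo6 and Rspo3 lost theirs. Among the genes named in the text none that was called turned sign. Uncalled genes near 0 did. With median scaling Fabp4 was at 0.18, Pparg at 0.12, Lpl at 0.16, Usp2 at 0.18, Actb at 0.13 and Gapdh at 0.0014. With no scaling Fabp4, Lpl and Usp2 were at 0.040, 0.025 and 0.043, with quantile scaling Usp2 and Actb at 0.12 and 0.046, and with normexp Fabp4 at 0.0039. With the deposited table Fabp4, Lpl and Usp2 were at 0.018, 0.0021 and 0.020. Without 1 array Fabp4 ran from -0.024 to 0.011, Lpl from -0.053 to 0.0089, Usp2 from -0.076 to 0.069 and Actb from -0.19 to 0.077. With 2 arrays a group and 1 slide, small changes of dim probes are beyond these data.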
